A study of Mus musculus with 9 samples.

Results

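The genes described here are 10 rows of a count table of 45808 genes, taken by symbol as the core of interleukin-2 (IL-2) receptor signalling. They are the receptor chains Il2rb and Il2rg, the kinases Jak1 and Jak3, the transcription factors Stat5a, Stat5b and Stat3, and the feedback inhibitors Socs1, Socs3 and Cish. The table was made from ICOS+ CD4 T cells sorted out of MC38 tumours, a transplanted mouse colon carcinoma, in C57BL/6J mice on day 12 after the tumour cells were injected. ICOS is a costimulatory receptor of activated T cells. The groups were 3 mice given anti-CTLA-4, 3 given anti-PD-1 and 3 labelled Control, with 1 library per mouse, and the title of the series asks whether the antibodies, each directed at an inhibitory receptor of T cells, act by distinct cellular mechanisms. The labels give no genetic change in any group, and the sources used here do not give the Control treatment, antibody doses or sorted cell numbers.

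IL-2 is bound at high affinity by the alpha chain Il2ra together with Il2rb and the common gamma chain Il2rg, which IL-4, IL-7, IL-9, IL-15 and IL-21 also use. Jak1 sits on the beta chain and Jak3 on the gamma chain, and together they phosphorylate mainly STAT5A and STAT5B, which then enter the nucleus and bind DNA. In regulatory T cells this route sustains Foxp3 and Il2ra, and Socs1, Socs3 and Cish are inhibitors that cytokine signalling itself can induce. Messenger RNA levels do not show the phosphorylation by which the route is switched on.

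STAT dimers bind a palindromic element, TTCNNNGAA, and the stretches below show where the start-site windows of these genes hold it. The windows run from 250 bases before to 50 bases after the start site in RefSeq (GRCm38.p6), and 9 of the 10 genes had a window. Matches were found in 2 of them, Cish with 2 matches and Socs3 with 1. The capitals mark the element, and since it reads the same on both strands, 1 strand was searched.
Cish, chr9:107296656-107296681, plus strand: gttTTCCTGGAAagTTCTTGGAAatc
Socs3, chr11:117969509-117969523, minus strand: gccTTCTTAGAAggg
The Cish matches lie at bases 1 to 20 counted from the start site, and that of Socs3 at bases -154 to -146. Of all 32851 windows, 8.3% held the element at least once and 0.457% held it 2 or more times. A match is only a run of letters, and binding was not measured.

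Levels are given as CPM, the counts of a gene per 1e+06 counts over all genes of its library; libraries held 25530333 to 41508589 gene counts, and the floor of 3 counts was worth 0.0723 to 0.118 CPM. Values carry the SD over n = 3 mice. Pairs of groups were compared by edgeR's quasi-likelihood test, with p-values adjusted after Benjamini and Hochberg over the 7858 genes tested, and a gene was called at an adjusted p below 0.05. Each mouse gave 1 library, so these p-values do not separate mouse from library preparation. A pair of libraries stood apart. Anti-CTLA-4 replicate 2 had 2662 genes at 5 CPM or more and anti-PD-1 replicate 2 had 4209, against 5124 to 6309 in the other 7 libraries. In anti-CTLA-4 replicate 2 the 12 T cell markers summed to 3800 CPM, with Cd3e at 0.590 CPM and Cd4 at 24.5 CPM. The 12 did not all move alike. In that library 0 of them were at 0 counts, and their fitted folds for anti-CTLA-4 against Control were 4 positive and 8 negative. The 15 macrophage and monocyte markers of that library summed to 6118 CPM. T cell markers summed to 8677 and 10550 CPM in the other anti-CTLA-4 libraries, 12000 to 12520 CPM under anti-PD-1 and 10560 to 11280 CPM in Control. Macrophage markers summed to 475 and 1173 CPM in the other anti-CTLA-4 libraries, 276 to 782 CPM under anti-PD-1 and 278 to 841 CPM in Control. The 2 CD8 T cell markers summed to 0.0281 to 0.0985 CPM under anti-CTLA-4, 0 to 125 CPM under anti-PD-1 and 0 CPM in Control, with Cd8a at 0 in every library and the high value, in anti-PD-1 replicate 3, from Cd8b1. The 6 NK cell markers summed to 0 CPM under anti-CTLA-4, 0 to 0.0302 CPM under anti-PD-1 and 0.0482 to 28.8 CPM in Control; all of it was Gzma, and Ncr1 was at 0 in every library. The part of these markers in the results was not tested. In sorted bulk cells, fewer cells of a type and less RNA per cell cannot be told apart.

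None of the 10 genes was called in any comparison. The filter on low counts let 8 of them be tested, all but Socs1 and Socs3. In the fit, 0.369% of genes tested were called for anti-CTLA-4 against Control, 0.0764% for anti-PD-1 against Control and 0.827% for anti-CTLA-4 against anti-PD-1, so 0 of 8 is near that background. None of the 8 had an unadjusted p under 0.05 in edgeR's fit of all 9 libraries, and limma voom with quality weights also called 0. DESeq2 called none of the 5 members to which it gave an adjusted p, and gave none to Il2rb, Stat3 and Cish in any comparison. The antibody comparisons share the Control libraries, and the direct comparison shares the libraries of both antibodies. The spread between mice was wide: the common dispersion gives a coefficient of variation of 1.84 within groups, and 83.5% of genes tested fell under 1 CPM in at least 1 library. Il2rb, Il2rg, Jak1, Jak3, Stat3 and Cish stayed above 1 CPM in all 9 libraries, whereas Stat5a and Stat5b did not.

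**Figure D1:**
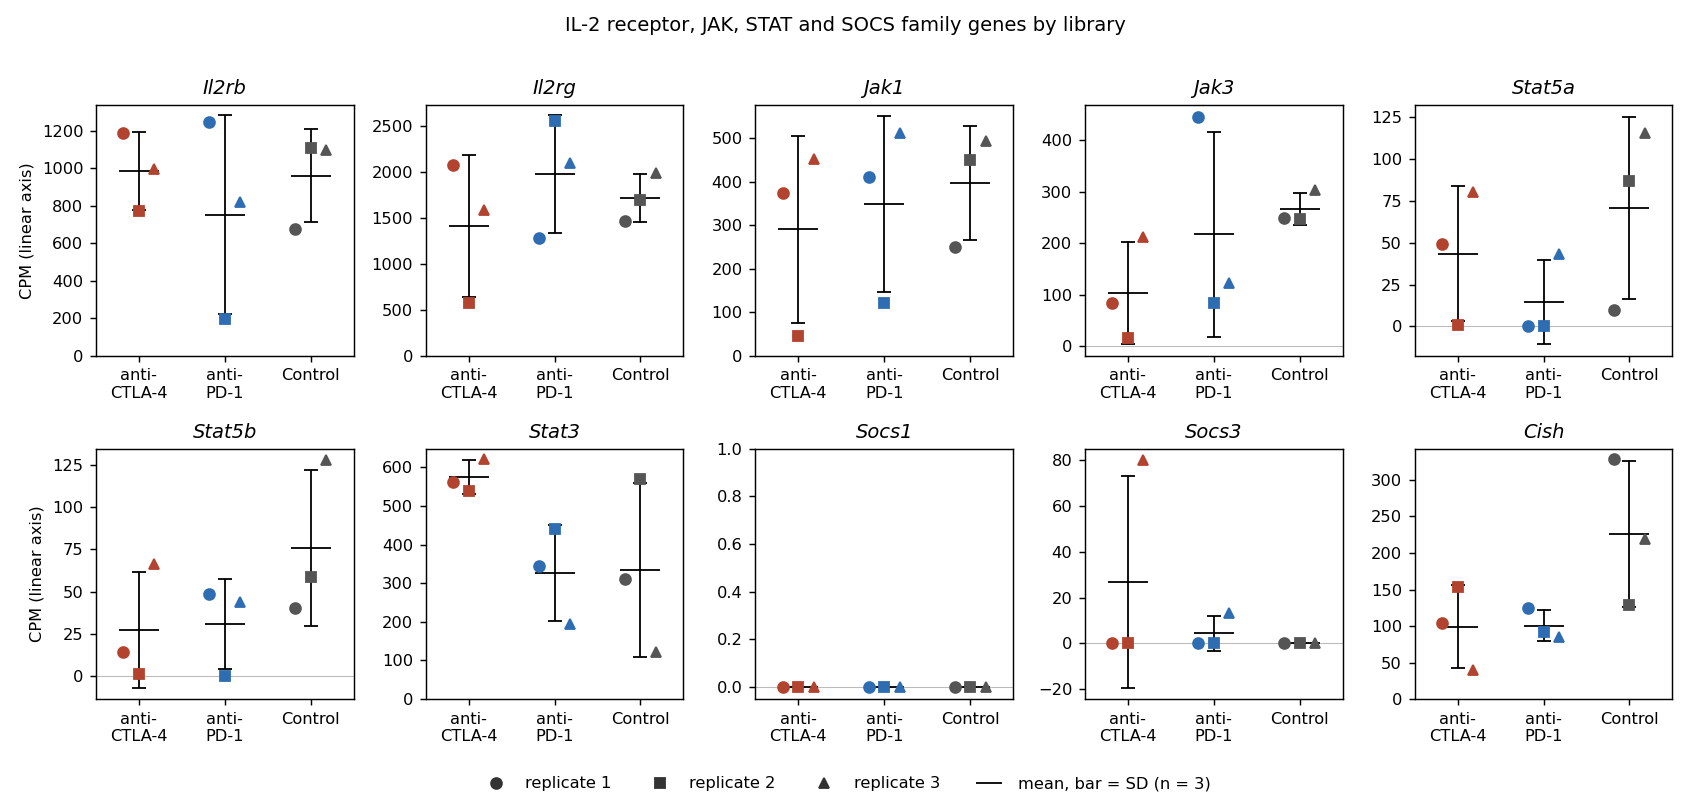
CPM of each of the 10 genes on its own linear axis, with groups in columns, 1 point per mouse, a line at the mean and a bar for the SD (n = 3); bars that pass below 0 reflect an SD larger than the mean. The Jak3 points under anti-CTLA-4 lie below all Control points, the Cish points under anti-PD-1 lie below all Control points, and the Stat3 points under anti-CTLA-4 lie above all anti-PD-1 points.

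Il2rg, the common gamma chain (ENSMUSG00000031304, GRCm38 chromosome X, 101264378 to 101268255, minus strand), was abundant in all 9 libraries. It had 2080, 570 and 1588 CPM under anti-CTLA-4, 1287, 2557 and 2100 CPM under anti-PD-1, and 1464, 1692 and 1987 CPM in Control. The lowest value was that of anti-CTLA-4 replicate 2 and the highest that of anti-PD-1 replicate 2, the 2 libraries with the fewest genes, and the groups overlapped. Means were 1412 ± 770 CPM under anti-CTLA-4, 1981 ± 644 CPM under anti-PD-1 and 1714 ± 262 CPM in Control. In GENCODE M21, 30.5% of its exon bases are shared with Gm20489 on the same strand, which was at 0 counts throughout; reads falling there may have been set aside as ambiguous, and its level may be read low.

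Il2rb, the beta chain that carries Jak1 (ENSMUSG00000068227, chromosome 15, 78479256 to 78495271, minus strand), had 1187, 774 and 996 CPM under anti-CTLA-4, 1247, 194 and 818 CPM under anti-PD-1, and 674, 1110 and 1099 CPM in Control. Anti-PD-1 held both the highest and the lowest library, and the groups overlapped. Means were 986 ± 207 CPM under anti-CTLA-4, 753 ± 530 CPM under anti-PD-1 and 961 ± 249 CPM in Control. The fitted log2 fold change was 0.74 (SE 0.72, adjusted p = 0.906) for anti-CTLA-4 against Control and 0.97 (SE 0.72, adjusted p = 0.623) against anti-PD-1. These fits use TMM scaling factors, 0.403 for anti-CTLA-4 replicate 2, 0.833 for anti-PD-1 replicate 2 and 1.06 to 1.26 for the others, which raise the scaled level of replicate 2 above its CPM. With library totals alone the same folds were 0.04 and 0.39, and without anti-CTLA-4 replicate 2 they were 0.36 and 0.62. Without anti-PD-1 replicate 2, the library at 194 CPM, the fold against anti-PD-1 was 0.49.

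The gene counts of the 2 chains did not keep a fixed ratio. Il2rb counts per Il2rg count were 0.571, 1.36 and 0.627 under anti-CTLA-4, 0.969, 0.0757 and 0.390 under anti-PD-1, and 0.460, 0.656 and 0.553 in Control. Both extremes were the replicate 2 libraries of the antibody groups, while the Control libraries lay close together. These count ratios are not corrected for gene length.

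Jak1, the kinase of the beta chain (ENSMUSG00000028530, chromosome 4, 101152367 to 101265282, minus strand), had 375, 45.6 and 452 CPM under anti-CTLA-4, 412, 122 and 512 CPM under anti-PD-1, and 249, 450 and 494 CPM in Control. Anti-CTLA-4 and anti-PD-1 replicate 2 gave the 2 lowest values, and the remaining 7 libraries lay between 249 and 512 CPM whatever the group. Its fitted log2 fold change was -0.15 (SE 1.18) for anti-CTLA-4 against Control and -0.05 (SE 1.18) for anti-PD-1 against Control, both far inside their error.

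Jak3, the kinase of the common gamma chain (ENSMUSG00000031805, chromosome 8, 71676296 to 71690575, plus strand), had 83.7, 15.7 and 211 CPM under anti-CTLA-4, 446, 83.9 and 123 CPM under anti-PD-1, and 249.9, 247.7 and 303 CPM in Control. All 3 anti-CTLA-4 libraries lay below all 3 Control libraries, and anti-PD-1 spanned both. It was the only 1 of the 8 genes whose anti-CTLA-4 and Control libraries did not overlap in CPM. Over all genes tested, 11.9% did not overlap in that comparison and 10.4% were lower without overlap, so 1 of 8 is near the background. Means were 104 ± 99.4 CPM under anti-CTLA-4, 218 ± 199 CPM under anti-PD-1 and 267 ± 31.4 CPM in Control. The fitted log2 fold change for anti-CTLA-4 against Control was -1.07 (SE 1.58, adjusted p = 1). It was -0.65 without anti-CTLA-4 replicate 2, -2.02 without anti-CTLA-4 replicate 3, and -0.01 with RLE factors, edgeR's other scaling. In GENCODE M21, 7.55% of its exon bases are shared with Insl3 on the same strand, which was at 0 counts in every library. Jak3 counts per Jak1 count were 0.223, 0.344 and 0.468 under anti-CTLA-4 and 1.08, 0.689 and 0.241 under anti-PD-1. In Control they were 1.0, 0.551 and 0.614. The anti-CTLA-4 and Control ratios did not overlap, as Jak3 by itself did not, and no share over other gene pairs was computed.

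Stat5a and Stat5b, the main STATs of the IL-2 receptor, were the members detected least evenly among those tested. Stat5a (ENSMUSG00000004043, chromosome 11, 100859351 to 100885169, plus strand) had 49.5, 0.647 and 80.2 CPM under anti-CTLA-4, 0, 0.0302 and 43.5 CPM under anti-PD-1, and 10.1, 87.1 and 115 CPM in Control. With anti-PD-1, 1 library had 0 counts, another had 1 count, and the remaining one had 1490 counts. Stat5b (ENSMUSG00000020919, chromosome 11, 100780731 to 100850724, minus strand) had 14.6, 1.55 and 66.2 CPM under anti-CTLA-4, 48.9, 0.0302 and 43.7 CPM under anti-PD-1, and 40.2, 59.0 and 128 CPM in Control. Control replicate 3 was highest for both genes, and the 2 replicate 2 libraries of the antibody groups were low for both. Anti-PD-1 replicate 1 had 0 counts of Stat5a beside 1248 counts of Stat5b.

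Stat5a averaged 43.4 ± 40.1 CPM under anti-CTLA-4, 14.5 ± 25.1 CPM under anti-PD-1 and 70.8 ± 54.4 CPM in Control. Stat5b averaged 27.5 ± 34.2 CPM under anti-CTLA-4, 30.9 ± 26.8 CPM under anti-PD-1 and 75.7 ± 46.2 CPM in Control. The Control mean was the highest for both genes, yet the groups overlapped in every comparison and no test passed; with libraries at or near 0, fitted folds are not given. For Stat5a under anti-PD-1 against Control, limma voom gave an unadjusted p of 0.0275, with an adjusted p of 0.575, and for anti-CTLA-4 against anti-PD-1 an unadjusted p of 0.0449, with an adjusted p of 0.659. Without anti-PD-1 replicate 3, the only library of its group with more than 1 count, edgeR's unadjusted p for Stat5a was 0.0389 for anti-PD-1 against Control (adjusted p = 0.650) and 0.0445 for anti-CTLA-4 against anti-PD-1 (adjusted p = 0.430). Of Stat5a, 5.04% of the 76-base stretches occur also in Stat5b, and of Stat5b 6.88% occur in Stat5a. Reads in that stretch cannot be assigned to either gene, which leaves most of both genes countable.

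Stat3, which IL-6, IL-10 and IL-21 use more than IL-2 does (ENSMUSG00000004040, chromosome 11, 100885098 to 100939540, minus strand), had 563, 538 and 623 CPM under anti-CTLA-4, 346, 440.5 and 194 CPM under anti-PD-1, and 312, 571 and 121 CPM in Control. The anti-CTLA-4 libraries lay close together and above all anti-PD-1 libraries, while Control replicate 2 reached into the anti-CTLA-4 range. Means were 574 ± 43.8 CPM under anti-CTLA-4, 327 ± 124 CPM under anti-PD-1 and 335 ± 226 CPM in Control. Stat3 was the only 1 of the 8 genes whose libraries did not overlap between anti-CTLA-4 and anti-PD-1, where 9.76% of genes tested did not overlap and 2.81% were higher without overlap. The fitted log2 fold change was 1.29 (SE 0.97, adjusted p = 0.633) against anti-PD-1 and 1.57 (SE 0.98, adjusted p = 0.536) against Control. Without anti-CTLA-4 replicate 2 these folds were 0.75 and 1.02. Limma voom gave an unadjusted p of 0.0415 for anti-CTLA-4 against Control, with an adjusted p of 0.654. With both replicate 2 libraries of the antibody groups left out, edgeR's unadjusted p for anti-CTLA-4 against anti-PD-1 was 0.0437 (adjusted p = 0.560). Stat3 and Stat5a are neighbours whose last exons overlap by 72 bases on opposite strands, a small part of either gene.

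Stat3 stayed up where Jak1 was low. Stat3 counts per Jak1 count were 1.5, 11.8 and 1.38 under anti-CTLA-4, 0.838, 3.61 and 0.380 under anti-PD-1, and 1.25, 1.27 and 0.245 in Control. The 2 highest ratios were the replicate 2 libraries of the antibody groups. In anti-CTLA-4 replicate 2, the macrophage marker sum was also the highest of the 9 libraries; its part in the Stat3 value was not tested.

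Cish, a SOCS family inhibitor that STAT5 induces (ENSMUSG00000032578, chromosome 9, 107296026 to 107302784, plus strand), was found in every library. It had 105, 153 and 39.4 CPM under anti-CTLA-4, 125, 91.6 and 85.6 CPM under anti-PD-1, and 328, 129 and 220 CPM in Control. All anti-PD-1 libraries lay below all Control libraries, by a narrow gap of 125 to 129 CPM, and the anti-CTLA-4 libraries overlapped Control at 153 CPM. Means were 99.1 ± 57.1 CPM under anti-CTLA-4, 100.6 ± 21.1 CPM under anti-PD-1 and 226 ± 99.8 CPM in Control. Cish was the only 1 of the 8 genes whose anti-PD-1 and Control libraries did not overlap, where 10.8% of genes tested did not overlap and 7.33% were lower without overlap. The fitted log2 fold change for anti-PD-1 against Control was -0.95 (SE 1.68, adjusted p = 0.9998), and it was -0.56 without Control replicate 1. For anti-CTLA-4 against Control it was -0.13 (SE 1.66, adjusted p = 1), nearer to 0 than the CPM means because the scaling factor raises replicate 2. Per Il2rg count, Cish had 0.0504, 0.269 and 0.0248 counts under anti-CTLA-4, 0.0969, 0.0358 and 0.0408 under anti-PD-1, and 0.224, 0.0762 and 0.111 in Control, and all these groups overlapped.

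Socs3, which restrains receptors of the IL-6 family (ENSMUSG00000053113, chromosome 11, 117966079 to 117970047, minus strand), was at or near 0 in 7 of 9 libraries. It had 0.164, 0 and 80.2 CPM under anti-CTLA-4, 0, 0.0302 and 13.3 CPM under anti-PD-1, and 0, 0.0965 and 0 CPM in Control. Only replicate 3 of each antibody group held more than the floor by a wide margin, with 2619 and 456 counts. With both replicate 2 libraries of the antibody groups left out, Socs3 had an unadjusted p of 0.0494 in edgeR for anti-CTLA-4 against Control (adjusted p = 0.624). Socs1, which binds JAK kinases directly (ENSMUSG00000038037, chromosome 16, 10782240 to 10785536, minus strand), had 0 counts in all 9 libraries. Over 299936139 gene counts, the floor of 3 counts allows up to 0.01 CPM. GENCODE M21 shows no gene overlapping Socs1 and no 76-base stretch shared with another gene, and why the table holds it at 0 was not tested. It is 1 of 32200 genes, 70.3% of the table, at 0 in every library.

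The fold changes of the 8 tested genes lay on both sides of 0 in each comparison. For anti-CTLA-4 against Control, 3 were positive and 5 negative, with a median log2 fold change of -0.14 against 0.01 over all genes tested. For anti-PD-1 against Control, 2 were positive and 6 negative, with a median of -0.19 against 0.07. For anti-CTLA-4 against anti-PD-1, 4 were positive and 4 negative, with a median of 0.41 against -0.05. Of the 24 folds, 4 were larger than their SE, namely those of Il2rb and Stat3 for anti-CTLA-4 against either other group. Another 18 were smaller than their SE in groups that overlapped, and 13 of these took the opposite sign in at least 1 other setting. Those that kept their sign were Stat5b for either antibody against Control, Stat5a between anti-PD-1 and either other group, and Il2rg for anti-PD-1 against Control. With RLE factors the positive and negative counts were 5 and 3, 4 and 4, and 7 and 1 in the same order of comparisons, and with library totals 2 and 6, 1 and 7, and 3 and 5, so the balance of signs depends on the scaling. Without anti-CTLA-4 replicate 2, 5 were positive and 3 negative for anti-CTLA-4 against Control, with a median of 0.16.

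**Figure D2:**
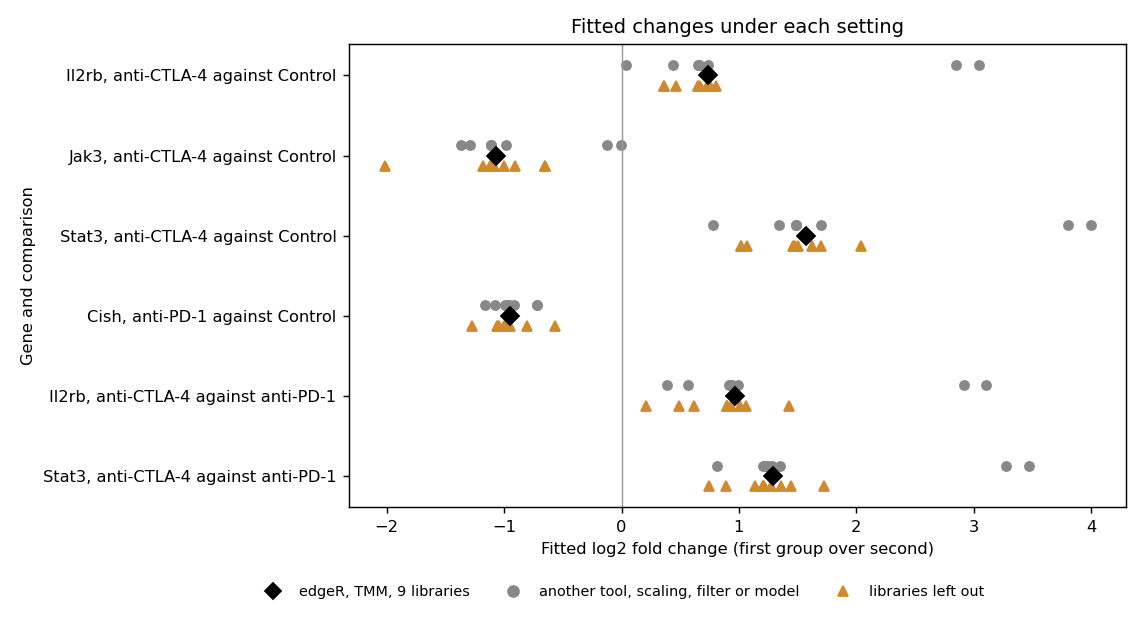
Fitted log2 fold changes on a linear axis (first group over second) for the 6 member folds that exceeded their SE or came from groups without overlap in CPM. Black diamonds are edgeR with TMM factors on 9 libraries, grey circles another tool, scaling, filter or model, and orange triangles fits with libraries left out; every point keeps the side of 0 of its diamond, and Il2rb for anti-CTLA-4 against Control runs from 0.04 to 3.04.

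The folds also depended on the scaling. RLE factors moved the median over all genes tested to 0.56 for anti-CTLA-4 against Control, 0.26 for anti-PD-1 against Control and 0.45 for anti-CTLA-4 against anti-PD-1, and library totals moved it to -0.34, -0.12 and -0.21. Relative to the median, the Stat3 fold for anti-CTLA-4 against Control was 1.56 with TMM, 3.44 with RLE and 1.12 with library totals. The Il2rb fold in that comparison was 0.73, 2.48 and 0.38 on the same 3 scalings. The Jak3 fold was -1.07, -0.57 and -1.03. The Cish fold for anti-PD-1 against Control stood at -1.02, -0.98 and -1.05, close together on the 3 scalings.

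Levels of different genes were compared per length, as CPM per kilobase of exon. The length merged the annotated exons of every transcript of a gene, 6419 bases for Cish, 7133 for Stat5a and 9527 for Stat3. Which transcripts the cells used was not tested, and the order of genes depends on this length. The receptor chains came first: Il2ra, the alpha chain, had a median of 1048 over 9 libraries (382 to 1707), Il2rg 709 (239 to 1071) and Il2rb 232 (45.2 to 291). Il2ra was above Il2rg in 8 of 9 libraries, and Il2rg above Il2rb in 9 of 9. The Il2rg length includes the 30.5% of its exon bases shared with Gm20489, where reads may not have been counted. Its level may thus be read low, and the order of Il2ra and Il2rg is not settled. Jak1 at 57.1 (6.31 to 70.8), Stat3 at 46.2 (12.7 to 65.4) and Jak3 at 39.5 (2.93 to 83.3) followed. These neighbours were not separated, since Jak1 exceeded Stat3 in 5 of 9 libraries and Stat3 exceeded Jak3 in 5 of 9. Cish had a median of 19.4 (6.14 to 51.2), Stat5b 7.90 (0.00546 to 23.1) and Stat5a 6.10 (0 to 16.2). Stat5b was above Stat5a in 7 of 9 libraries. These include anti-PD-1 replicate 2, where each gene had 1 count, under the floor, and only the lengths differed. Il2rb was above Jak1 in 9 of 9 libraries, and its lowest library lay above the highest of Stat5a and Stat5b.

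**Figure D3:**
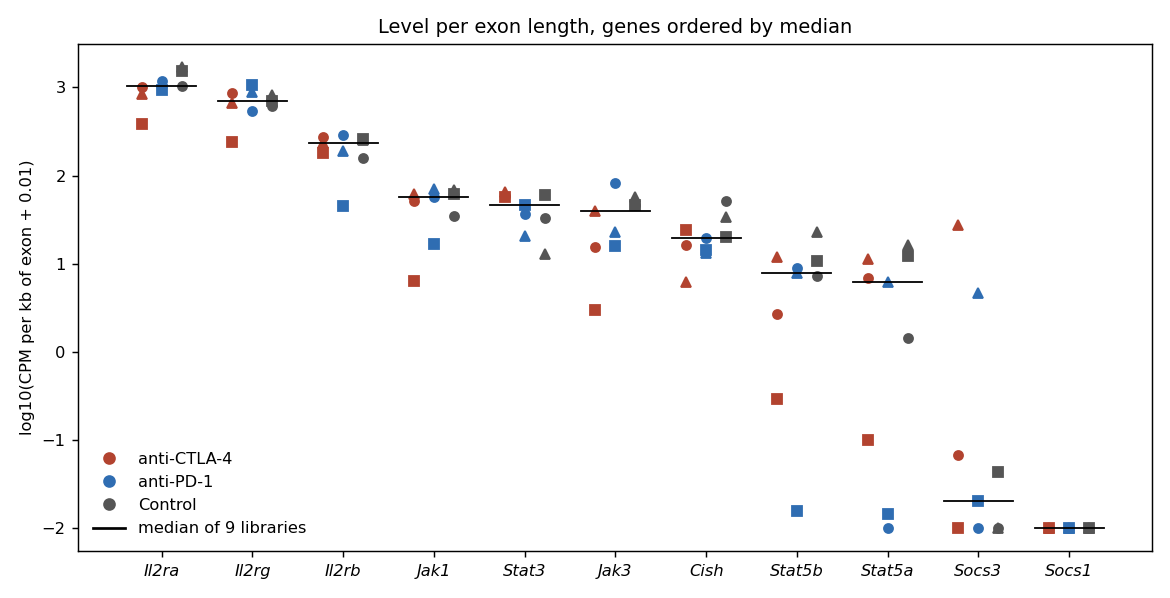
Level per exon length, as log10 of CPM per kilobase plus 0.01, for Il2ra and the 10 genes in order of their median; points are the 9 libraries, coloured by group with the marker shape giving the replicate (circle 1, square 2, triangle 3), and lines are medians. Il2ra, Il2rg and Il2rb lie highest, Jak1, Stat3 and Jak3 overlap, and Socs1 is at 0 throughout.

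The genes whose profile over the 9 libraries was most like that of Il2rg, Il2rb and Stat3, the members of highest mean CPM before any correction for length, were found by Pearson's r of log2(CPM + 1) among 3345 genes of 50 CPM or more. Nearest to Il2rg were Cflar (r = 0.98), Capza1 (r = 0.98) and Rabgap1l (r = 0.97), and r stayed at 0.863 or more without the 2 libraries farthest from the median of Il2rg, the antibody replicates 2. Among those nearest to Il2rb were Notch1 (r = 0.98) and Gna13 (r = 0.98), with r of 0.795 and 0.806 without anti-PD-1 replicate 2 and Control replicate 1. Nearest to Stat3 were Terf1 (r = 0.91), Mef2a (r = 0.89) and Dad1 (r = 0.87), but r was 0.0896 to 0.503 without Control replicate 3 and anti-PD-1 replicate 3, so these rest on 2 libraries. The libraries share depth, amplification and treatment groups, and the nearest of 3345 genes will be alike by selection.

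Among other chains of the common gamma family, all 6 were tested and none was called in any comparison. Il2ra (ENSMUSG00000026770) had 5793, 2179 and 4853 CPM under anti-CTLA-4, 6727, 5288 and 6490 CPM under anti-PD-1, and 5987, 8761 and 9748 CPM in Control. The anti-CTLA-4 libraries lay below all Control libraries, the closest pair being 5793 CPM under anti-CTLA-4 and 5987 CPM in Control. Il15ra and Il21r, described further on, also lay below all Control libraries, so 3 of the 6 chains were lower without overlap. Over all genes tested, 10.4% were lower without overlap in that comparison. The fitted log2 fold change of Il2ra was -0.40 (SE 0.34, adjusted p = 0.808 in edgeR's test). Il7r, the IL-7 receptor alpha chain, averaged 686 ± 383 CPM under anti-CTLA-4, 959 ± 355 CPM under anti-PD-1 and 1136 ± 336 CPM in Control. Folds of the 6 were 3 positive and 3 negative for anti-CTLA-4 against Control, 2 and 4 for anti-PD-1 against Control, and 1 and 5 for anti-CTLA-4 against anti-PD-1, but 5 and 1, 4 and 2, and 5 and 1 with RLE factors.

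The cytokines themselves were low or at 0 in these cells. Of 6, only Il15 and Il21 could be tested, and neither was called. Il15 averaged 15.0 ± 25.9 CPM under anti-CTLA-4, 23.5 ± 20.4 CPM under anti-PD-1 and 0.0855 ± 0.0332 CPM in Control. Il21 averaged 1.91 ± 3.28 CPM under anti-CTLA-4, 0.0201 ± 0.0349 CPM under anti-PD-1 and 15.1 ± 22.2 CPM in Control. Above 1 CPM, Il15 was found in 1 anti-CTLA-4 and 2 anti-PD-1 libraries, and Il21 in 1 anti-CTLA-4 and 2 Control libraries.

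None of the 6 other JAK and STAT genes was called, with 3 positive and 3 negative folds for anti-CTLA-4 against Control, 4 and 2 for anti-PD-1 against Control, and 1 and 5 for anti-CTLA-4 against anti-PD-1. Jak2 averaged 96.0 ± 119 CPM under anti-CTLA-4, 203 ± 109 CPM under anti-PD-1 and 255 ± 127 CPM in Control. In anti-CTLA-4 replicate 2 it stood at 0.309 CPM, the lowest of the 9 libraries, as for Jak1 and Jak3.

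Of the other SOCS, PIAS and phosphatase genes, 11 of 13 were tested and none was called, though more folds were positive than negative. For anti-CTLA-4 against Control 10 were positive and 1 negative, with a median log2 fold change of 1.87 against 0.01 over all genes tested. For anti-PD-1 against Control 8 were positive and 3 negative (median 0.56), and for anti-CTLA-4 against anti-PD-1 the counts were also 8 and 3 (median 1.42). Relative to the median of all genes, the list's median for anti-CTLA-4 against Control was 1.87 with TMM, 3.02 with RLE and 1.60 with library totals. Without anti-CTLA-4 replicate 2, 11 were positive and 0 negative, with a median of 1.10, and between the antibodies the median was 0.57. For anti-CTLA-4 against Control, 10 of 13 macrophage and monocyte markers tested had positive folds (median 3.46). Without anti-CTLA-4 replicate 2, the library with a sum of 6118 CPM and the factor of 0.403, 7 of 13 were positive (median 0.58). The 6 fibroblast markers tested had a median of 1.29 in the same comparison, and -0.39 without that library. The part of these markers in the list's folds was not tested. Pias1, an inhibitor of activated STAT factors, had 238, 281 and 265 CPM under anti-CTLA-4, 210, 93.5 and 165 CPM under anti-PD-1, and 22.2, 0.547 and 194 CPM in Control. All anti-CTLA-4 libraries lay above all others, and the adjusted p in edgeR's test was 0.472 against Control and 0.852 against anti-PD-1. Over all genes tested, 11.9% did not overlap in either direction against Control, most of them lower (10.4% of genes tested). Against anti-PD-1, 2.81% were higher without overlap. Ptpn1, a phosphatase that acts on JAK kinases, averaged 364 ± 350 CPM under anti-CTLA-4, 150.2 ± 110 CPM under anti-PD-1 and 99.6 ± 69.6 CPM in Control. Its highest library, at 765 CPM, was anti-CTLA-4 replicate 2, and its adjusted p was 0.428 for anti-CTLA-4 against Control.

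All 16 genes listed as STAT5 targets in T cells were tested and none was called. Folds were 11 positive and 5 negative for anti-CTLA-4 against Control (median 0.30), 10 and 6 for anti-PD-1 against Control (median 0.17), and 9 and 7 for anti-CTLA-4 against anti-PD-1 (median 0.12). With library totals these counts were 8 and 8, 7 and 9, and 6 and 10. Foxp3, the lineage factor of regulatory T cells, averaged 2263 ± 1185 CPM under anti-CTLA-4, 3309 ± 541 CPM under anti-PD-1 and 2773 ± 436 CPM in Control; its lowest library, at 898 CPM, was anti-CTLA-4 replicate 2. Of receptor chains that signal through STAT3, 7 of 8 were tested and none was called, with 3 positive and 4 negative folds for either antibody against Control and 2 and 5 between the antibodies (4 and 3 with RLE factors). Il21r, the IL-21 receptor, had 284, 353 and 352 CPM under anti-CTLA-4, 654, 359 and 738 CPM under anti-PD-1, and 454, 545 and 550.2 CPM in Control. The anti-CTLA-4 libraries were below all others in CPM, but the fitted log2 fold change against Control was 0.21 (SE 0.95, adjusted p = 1), of the opposite sign, since the fit scales replicate 2 up. Of all genes tested, 10.4% were lower without overlap for anti-CTLA-4 against Control. Against anti-PD-1, 9.76% did not overlap in either direction, and 2.81% were higher without overlap. Il10ra, the IL-10 receptor alpha chain, averaged 60.7 ± 97.1 CPM under anti-CTLA-4, 103 ± 109 CPM under anti-PD-1 and 172 ± 57.8 CPM in Control.

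**Figure D4:**
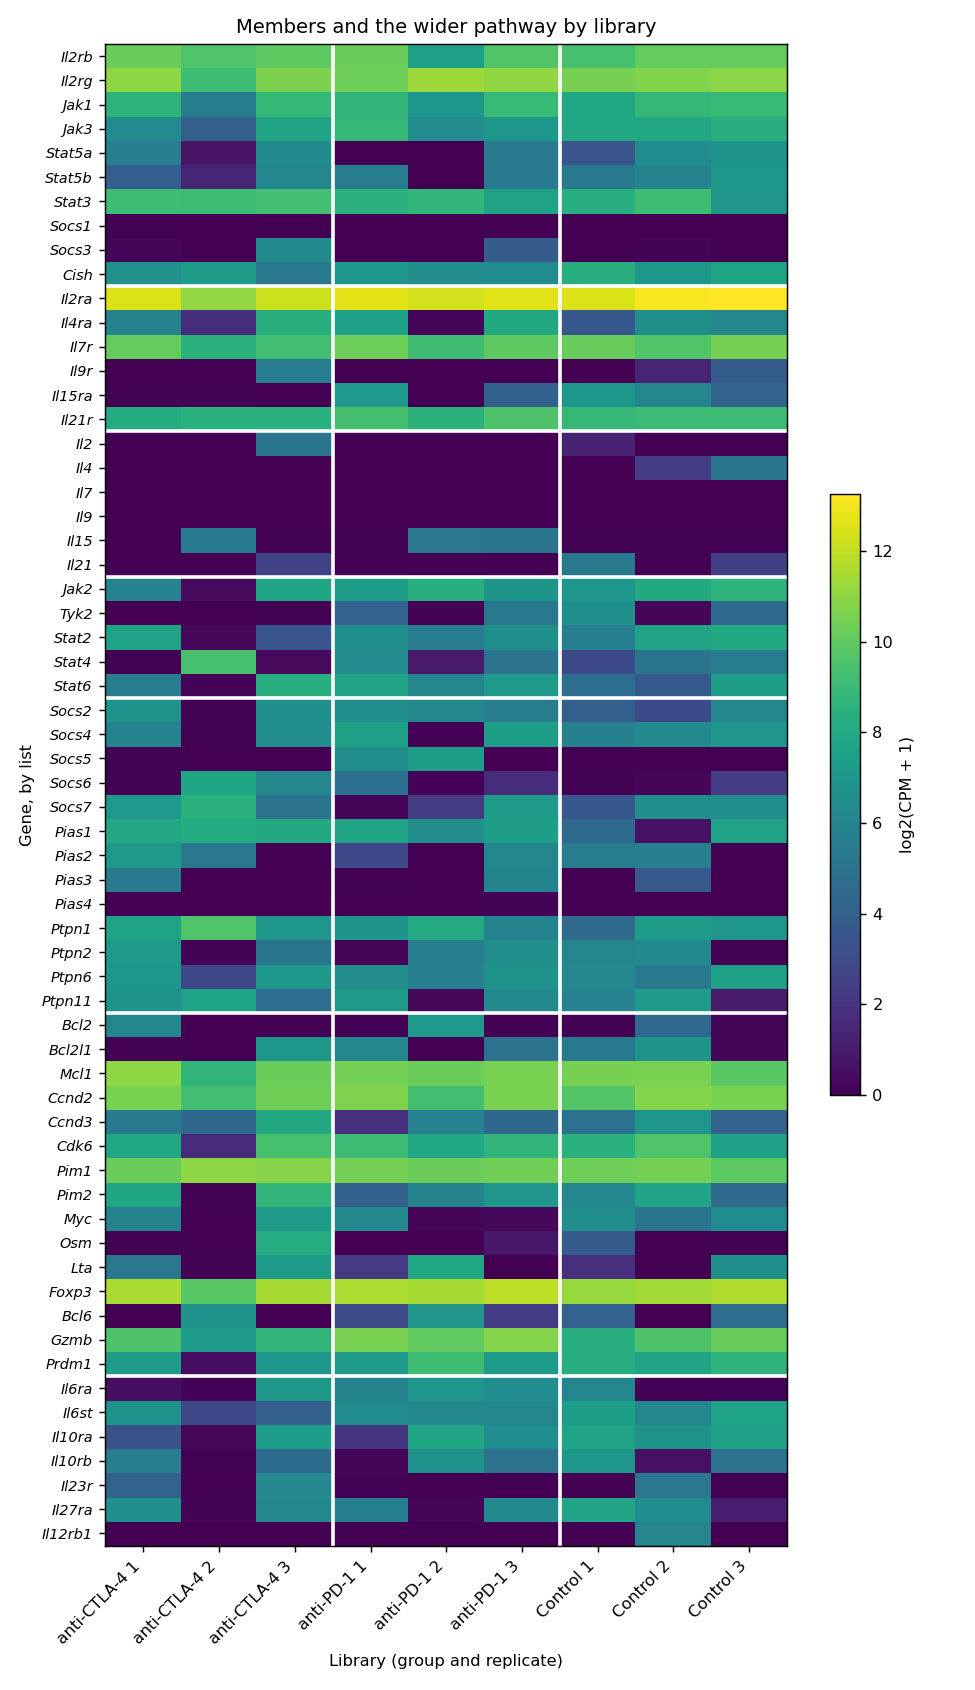
Heat map of log2(CPM + 1) for the 10 genes and genes of the wider lists (rows) in the 9 libraries (columns, anti-CTLA-4, anti-PD-1, Control), white lines parting lists and groups. Il2ra, Foxp3, Il2rg and Il2rb are bright across the row, while many inhibitors and STAT5 targets switch between dark and bright among libraries of the same group, as Stat5a does with 0 and 43.5 CPM under anti-PD-1.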

How the data were processed

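The authors deposited raw counts per gene for each library, not normalized. The submitters' processing notes name TopHat2, HTSeq, DESeq2 and build GRCm38, and versions and annotation are not stated in any source used here. The deposited counts are labelled firstStrand, and no other statement of the strand setting was found. Libraries were amplified with a single-cell kit per the labels' protocols, and no molecular identifiers are mentioned, so a floor covers only counting error. Summary entries that name no gene entered neither library sizes nor tests. Genes held 32.9% to 40.7% of counts; no feature, 27.1% to 42.0%; not unique, 24.3% to 31.1%; ambiguous, 0.631% to 1.13%.

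From the counts, CPM per library was computed here without further factors. Tests used edgeR 4.0.16 (R 4.3.3) with robust quasi-likelihood fits, TMM factors and filterByExpr (minimum count 10), on all 9 libraries, with group as the only term, Benjamini-Hochberg adjustment and a threshold of 0.05. SEs are approximate, being the change divided by the square root of F. Alternatives, 18 in all, covered DESeq2 1.42.0, limma 3.58.1 voom, scaling, filters, fits of 2 groups, a replicate block and libraries left out. Exon lengths, overlaps and shared 76-base stretches came from GENCODE M21.

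The members, wider lists and marker lists were chosen with earlier results of these data known. All members are named; of each other pathway list, every called gene and the 2 tested genes of highest mean CPM are named, and genes named beyond that were chosen after their values were seen. Some genes that this rule would name are not reported here.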

Additional observations from a re-analysis of the deposited data

How the results depend on the processing

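None of the members with an adjusted p was called under any of the 18 alternatives; DESeq2 gave no adjusted p to Il2rb, Stat3 and Cish, so its result covers 5 of the 8 members tested. The 6 member folds drawn in the plot of fold settings kept their sign in all of them. They had been picked from the same data for exceeding their SE or lacking overlap, and the alternatives refit the same libraries. Nearest to 0 were -0.01 for Jak3 and 0.04 for Il2rb, both for anti-CTLA-4 against Control. The count of genes called over the whole table depended on the setting. For anti-CTLA-4 against Control it was 29, and it was 0 with RLE factors, 0 with library totals only, 0 with voom, 814 with DESeq2, 64 with no filter, 17 with genes of 5 CPM in 3 libraries, 1 with these 2 groups only, and 0 to 79 with each replicate left out. It was 0 without anti-CTLA-4 replicate 2, 79 without anti-CTLA-4 replicate 1 and 72 without anti-CTLA-4 replicate 3. For anti-PD-1 against Control it was 6, and it was 0 with RLE factors, 0 with library totals only, 1 with voom, 741 with DESeq2, 2 with no filter, 3 with the 5 CPM filter, 0 with 2 groups only, and 0 to 5 with each replicate left out. For anti-CTLA-4 against anti-PD-1 it was 65, and it was 0 with RLE factors, 6 with library totals only, 2 with voom, 963 with DESeq2, 98 with no filter, 38 with the 5 CPM filter, 31 with 2 groups only, and 6 to 145 with each replicate left out, 6 being without anti-CTLA-4 replicate 2. Leaving out anti-CTLA-4 replicate 2 and anti-PD-1 replicate 2 together, an alternative chosen after seeing the data, gave 1, 2 and 16 calls in the same order of comparisons. With the replicate number as a block, calls were 10, 1 and 12. Deviations of same-numbered libraries correlated at -0.0345 to 0.0182, and 2 of 9 libraries correlated best with their own number. No shared deviation by number was seen, but with this spread between libraries the check cannot settle whether the numbers pair the mice. edgeR split its calls into 29 higher and 0 lower for anti-CTLA-4 against Control, 3 and 3 for anti-PD-1 against Control, and 64 and 1 for anti-CTLA-4 against anti-PD-1, and DESeq2 split its calls into 208 higher and 606 lower for anti-CTLA-4 against Control, 209 and 532 for anti-PD-1 against Control, and 403 and 560 for anti-CTLA-4 against anti-PD-1. The cause of these differences was not tested.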

Other observations

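All genes given here but Cd68 were chosen after their values were seen. Il15ra, the IL-15 receptor alpha chain, had 0.0656, 0.0562 and 0 CPM under anti-CTLA-4, 135, 0 and 16.4 CPM under anti-PD-1, and 126, 64.6 and 17.8 CPM in Control. All anti-CTLA-4 libraries were at or under 2 counts, and the adjusted p against Control in edgeR's quasi-likelihood test was 0.432. Tyk2, a JAK family kinase of the IL-10 and IL-12 receptors, was likewise at 1 to 2 counts in all anti-CTLA-4 libraries, against 16.7, 0.0604 and 40.4 CPM under anti-PD-1 and 98.4, 0.193 and 22.4 CPM in Control (adjusted p = 0.435 in edgeR's test against Control). Socs5 had 0.0656, 0 and 0 CPM under anti-CTLA-4, 93.2, 172 and 0.0292 CPM under anti-PD-1, and 0 counts in all Control libraries. Il2 itself had 32.7 CPM in anti-CTLA-4 replicate 3, 1.42 CPM in Control replicate 1 and 0 counts in the other 7 libraries. Pim1, a kinase gene that STAT5 induces, had 1197, 2052 and 1822 CPM under anti-CTLA-4, 1408, 1184 and 1326 CPM under anti-PD-1, and 1277, 1441 and 974 CPM in Control. Its groups overlapped, and its log2 fold change for anti-CTLA-4 against Control was 1.38 (SE 0.57, unadjusted p = 0.0157, adjusted p = 0.432 in edgeR's test). Cd68, a macrophage marker, was the only gene of any pathway or marker list called, for anti-CTLA-4 against anti-PD-1 (adjusted p = 0.0271 in edgeR's test), with 9.71, 306 and 0.153 CPM under anti-CTLA-4 and 0, 0.0604 and 0.0292 CPM under anti-PD-1. The 306 CPM was that of replicate 2, the library with the highest macrophage marker sum and the factor of 0.403. Against Control its log2 fold change was 5.73 (SE 2.55) for anti-CTLA-4 and -7.08 (SE 2.75) for anti-PD-1, and neither was called.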
